A study of Mus musculus with 3 samples.

Results

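The Hox genes encode homeodomain transcription factors that lie in 4 clusters, Hoxa, Hoxb, Hoxc and Hoxd, and are numbered by paralogue group from 1 at the anterior end to 13 at the posterior end. They were followed here in PDL-L2, an immortalised mouse line derived from periodontal ligament fibroblasts. A member was any gene of the form Hoxa, Hoxb, Hoxc or Hoxd plus a number that was read by a probe set with a single gene symbol, and this rule used no measured value. It found 33 genes and 48 probe sets, of 18193 genes on the arrays. The RefSeq table lists 39 such genes. The other 6 are not analysed here, among them Hoxb8 and Hoxd4, which were read only by probe sets shared with a neighbouring Hox gene.

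In the embryo, Hox genes are switched on in the order of their place in the cluster, and the combination a cell holds marks its level along the body axis. The mesenchyme of the jaws, from which the periodontal ligament is formed, descends from cranial neural crest that lies in front of the Hox domain and is patterned by Dlx, Msx and related homeobox genes. Fibroblasts in culture are known to keep much of the Hox code of their site of origin. Hox proteins bind DNA with the TALE cofactors of the Pbx, Meis and Pknox families, and the clusters are held silent by Polycomb and active by trithorax complexes.

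Cells received a control siRNA pool (siCont) or a pool against endoglin (siENG), an accessory TGF-β receptor. At 48 h after transfection they were given vehicle or recombinant human BMP-2 at 250 ng/ml, in differentiation medium with ascorbic acid and β-glycerophosphate, for 12 h. Total RNA of siCont cells with vehicle, siCont cells with BMP-2 and siENG cells with BMP-2 was read on 1 Affymetrix mouse genome array each, called below the vehicle, BMP-2 and siENG arrays, and signals are given in that order. There is no replicate, so no p-value is given, and no siENG array with vehicle was analysed here, so the effect of siENG alone cannot be told apart from that of siENG with BMP-2. In RNA from whole cultures, fewer cells that express a gene and less RNA per cell cannot be told apart.

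Endoglin (Eng) gave signals of 286, 299 and 108, lowest on the siENG array. Of 11 measured markers of periodontal ligament and tendon fibroblasts, 8 were above the control range defined below on all 3 arrays, among them periostin (Postn), type I collagen and the tendon factors Scx and Mkx. The 8 are 72.7%, beside 59.5% of all genes and 75% of neuron and glia markers, so the count does not set ligament markers apart. The markers Aspn, Tnmd and Thy1 were within the range on every array. Of 5 endothelial markers, Pecam1, Cdh5, Tek and Vwf were within it on every array and Kdr had 4.2, 25.8 and 20. Of 5 leukocyte markers, 2 were above it on all 3 arrays, and Ptprc and Cd3e were within it on every array. The macrophage gene Cd68 gave 71.0, 50.0 and 118 and Csf1r 40.6, 31.4 and 47.7, both highest on the siENG array. Lyz2 had 11.5, 25.9 and 36.3, within the range with vehicle alone. The 5 leukocyte markers summed to 132, 117 and 211, over unlike probe sets of which Cd68 weighs most. The part of these markers in the results below was not tested. Of other cell types, 2 of 4 skeletal muscle, 0 of 3 cartilage and 3 of 4 neuron and glia markers were above the range on all 3 arrays. Some of these markers differed between arrays. The cartilage genes Col2a1 (11.5, 41.1 and 28.8) and Acan (7.1, 15.1 and 11.2) reached 2 or more for BMP-2 over vehicle, and the muscle gene Des (53.5, 13.9 and 74.2) and the glial gene Gfap (18.8, 3.7 and 16.9) were lowest on the BMP-2 array. Their part in the results below was not tested either. The siENG array was brighter than the others, with a 2% trimmed mean of 166 against 141 and 143, and the median log2 ratio of the probe sets kept was 0.20 for siENG over siCont with BMP-2.

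Background was judged from 27 control probe sets against Bacillus genes, whose targets mouse RNA does not hold. Their signals ran from 0.2 to 13.1 over the 3 arrays, and a gene was called above the control range where its signal exceeded 13.1. A gene with several probe sets was read from the one of highest mean log2 signal. The range covers background only roughly, since each probe set has its own, so a signal just above 13.1 carries little weight. Signals of different probe sets are not comparable as levels, and below each gene is compared only with itself across arrays or with the control range. Sums over markers are the exception, and the brightest probe sets weigh most in them.

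Most Hox genes, 18 of 33, stayed within the control range on every array. Of the 33, 7 were above the control range on all 3 arrays, which is 21.2%, against 59.5% of all 18193 genes. These were Hoxa3, Hoxa5, Hoxa10, Hoxb6, Hoxb9, Hoxc6 and Hoxc13. A further 8 were above it on 1 or 2 arrays (Hoxa9, Hoxa11, Hoxa13, Hoxb3, Hoxb4, Hoxc9, Hoxc10 and Hoxd8). With at least 1 array above as the rule the count was 15, or 45.5%, against 72.8% of all genes. At 26.2, 2 times the limit, 5 genes remained on all 3 arrays (Hoxa3, Hoxa5, Hoxa10, Hoxb9 and Hoxc13).

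**Figure D1:**
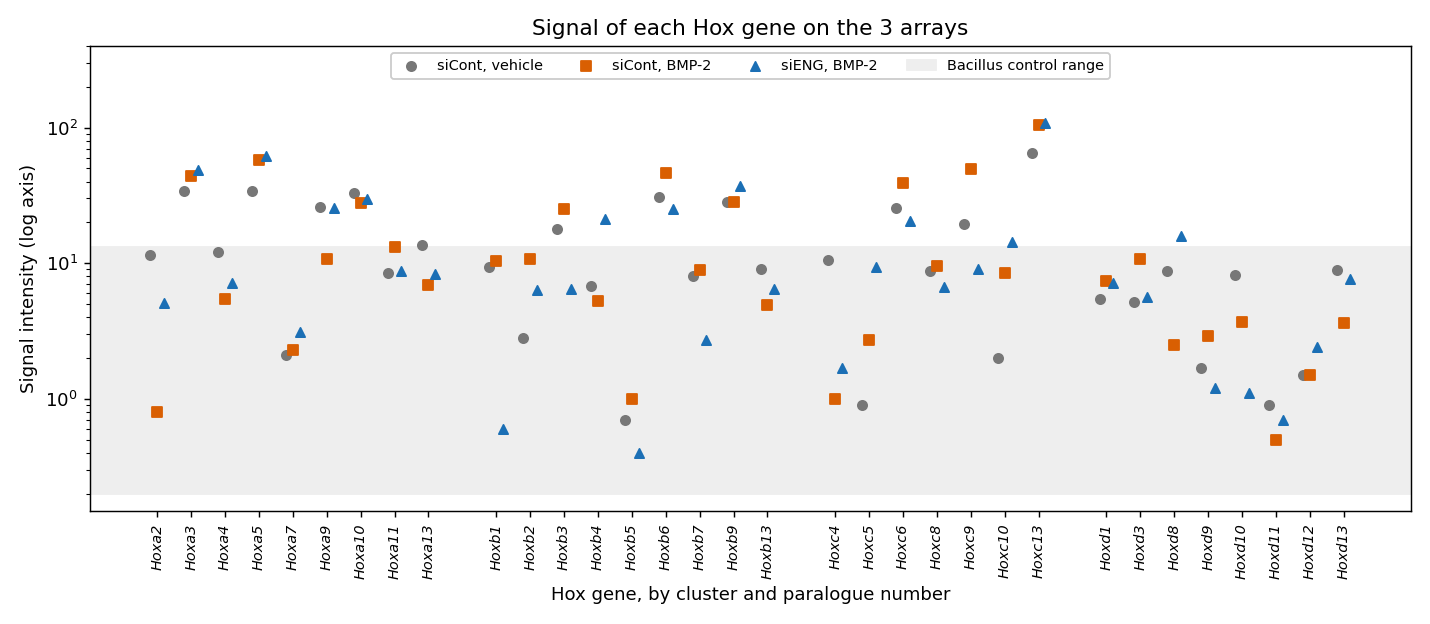
Signal intensity (log axis) of the 33 Hox genes in order of cluster and paralogue number, with 1 point per array: grey circles for siCont with vehicle, orange squares for siCont with BMP-2 and blue triangles for siENG with BMP-2. The grey band spans the Bacillus controls, 0.2 to 13.1, and Hoxc13 reaches 108 with siENG while 7 of 8 Hoxd genes lie inside the band on every array.

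The genes above the range came from the Hoxa, Hoxb and Hoxc clusters. The count on all 3 arrays was 3 of 9 in Hoxa, 2 of 9 in Hoxb, 2 of 7 in Hoxc and 0 of 8 in Hoxd. In Hoxd, the cluster best known for its part in limb and digit patterning, Hoxd8 alone exceeded the limit, with 16.0 on the siENG array, and Hoxd1, Hoxd3, Hoxd9, Hoxd10, Hoxd11, Hoxd12 and Hoxd13 stayed within the range. Also within it on every array were Hoxa2, Hoxa4 and Hoxa7, Hoxb1, Hoxb2, Hoxb5, Hoxb7 and Hoxb13, and Hoxc4, Hoxc5 and Hoxc8. By paralogue number, 1 of 7 genes was above on all 3 arrays in groups 1 to 3, 3 of 12 in groups 4 to 8 and 3 of 14 in groups 9 to 13. Among 29 pairs of measured genes adjacent in number within a cluster, 0 had both members above the range on all 3 arrays, and 6 had both above it on at least 1. On the second count Hoxa9, Hoxa10, Hoxa11 and Hoxa13 were adjacent among the measured genes, as were Hoxb3 and Hoxb4, and Hoxc9, Hoxc10 and Hoxc13. Of single Hox genes, 21.2% were above on all 3 arrays and 45.5% on at least 1. The number of pairs that these shares alone would give was not worked out, so the pair counts do not show grouping of neighbours.

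**Figure D2:**
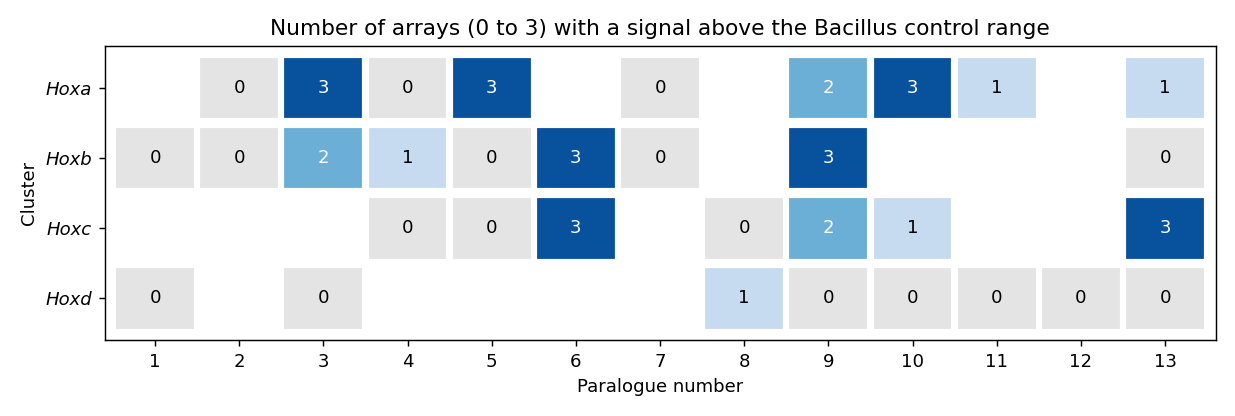
Number of arrays, 0 to 3, on which each Hox gene had a signal above the Bacillus control range, by cluster (rows) and paralogue number (columns). Blank positions hold no mouse gene or one not read by a probe set of a single symbol, and the 7 dark squares marked 3 are spread over Hoxa, Hoxb and Hoxc from paralogue 3 to 13.

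Promoter sequence is shown for the 3 of these 7 genes that have an entry in the RefSeq promoter table of GRCm38.p6, all of them in the Hoxa cluster on chromosome 6, so that the genes with signal can be read beside their upstream DNA. Each line gives the 250 bases before an annotated start on the minus strand, and Hoxa10 has 2 annotated starts. The table holds 21 promoters of 19 of the 33 Hox genes. The motifs searched, on both strands, were GTCTG (a Smad-binding motif), GGCGCC (a GC-rich Smad element), AGGTCA (the core motif of retinoic acid receptors), TGATNNAT (a Pbx-Hox site), TTTATG (a Cdx site), CCAAT and TATAAA. None of these motifs lies inside another. Capitals mark their matches on either strand.
Hoxa3, chr6:52213068-52213317: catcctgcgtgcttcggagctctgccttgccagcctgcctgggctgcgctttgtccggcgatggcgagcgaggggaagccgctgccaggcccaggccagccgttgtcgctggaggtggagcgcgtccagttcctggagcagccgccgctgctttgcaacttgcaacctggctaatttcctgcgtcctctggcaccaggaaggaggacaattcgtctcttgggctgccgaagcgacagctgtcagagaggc
Hoxa5, chr6:52204588-52204837: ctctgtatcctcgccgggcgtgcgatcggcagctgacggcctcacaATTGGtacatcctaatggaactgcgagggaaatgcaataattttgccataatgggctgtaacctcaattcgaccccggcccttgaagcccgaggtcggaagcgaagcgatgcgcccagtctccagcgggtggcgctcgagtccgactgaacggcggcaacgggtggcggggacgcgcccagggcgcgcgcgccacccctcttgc
Hoxa10, chr6:52234940-52235189: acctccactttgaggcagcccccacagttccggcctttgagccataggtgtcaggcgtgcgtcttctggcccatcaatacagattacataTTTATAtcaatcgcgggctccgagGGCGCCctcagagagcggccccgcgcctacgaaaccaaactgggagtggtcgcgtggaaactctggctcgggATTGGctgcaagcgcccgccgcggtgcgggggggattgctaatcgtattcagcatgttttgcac
Hoxa10, chr6:52240855-52241104: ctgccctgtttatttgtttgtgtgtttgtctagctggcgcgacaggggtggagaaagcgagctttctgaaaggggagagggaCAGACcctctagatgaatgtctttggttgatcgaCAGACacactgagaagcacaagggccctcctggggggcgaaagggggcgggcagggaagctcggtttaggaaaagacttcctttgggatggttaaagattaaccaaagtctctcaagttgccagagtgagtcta

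The upstream stretch of Hoxa3 held none of the 7 motifs, but a window reaching 50 bases past its start also held a Smad-binding motif, beyond the bases printed. That of Hoxa5 held a CCAAT box 204 bases before the start, and the same wider window also held the retinoic acid receptor motif. The 2 starts of Hoxa10 differed, the first with a TATA box, a GC-rich Smad element and a CCAAT box at 160, 136 and 64 bases and the second with Smad-binding motifs at 168 and 134 bases. Windows of 300 bases that reach 50 bases past the start were compared over the 21 promoters of 19 Hox genes and all 32851 promoters in the table. The CCAAT box was in 12 of 21 Hox promoters and 37.4% of all, the GC-rich Smad element in 5 and 11.9%, the retinoic acid receptor motif in 6 and 16.3%, and the Smad-binding motif in 8 and 49.6%. The Pbx-Hox site was in 3 and 8.85%, the Cdx site in 3 and 11.9%, and the TATA box in 2 and 13.6%. CpG dinucleotides were more frequent at Hox promoters, with a median observed over expected ratio of 0.596 against 0.384 over all promoters. The 4 promoters of the genes above the range had ratios from 0.596 to 1.02, highest at Hoxa5, and the 12 promoters of genes within it on every array from 0.257 to 0.920, so these sets overlapped. A match of letters is a description and does not show that a factor binds there.

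Hoxc13, known for its role in hair and nail keratinocytes, was the most posterior gene above the range on all 3 arrays. Its signals were 64.8, 104 and 108. Both arrays of BMP-2-treated cells were higher than vehicle, by a log2 ratio of 0.68 for siCont, where the robust SD of probe sets of similar signal was 0.29, and siENG differed from siCont by 0.05. The single probe set of Hoxc13 leaves this without a second reading. Of 4 hair keratinocyte markers, 0 were above the range on all 3 arrays and 2 on at least 1. Foxn1, a factor of hair follicle and thymus, had 13, 21.5 and 16.3, the first of them within the range. Its log2 ratio was 0.73 for BMP-2 over vehicle in siCont cells (robust SD 0.60). For siENG with BMP-2 over vehicle it was 0.33, within the robust SD of 0.74. The hair keratin Krt31 had 15, 2.3 and 6.8, and Krt33a and Krt86 were at 4.9 or less.

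Hoxa5, a gene of thoracic and lung patterning, was also higher on both arrays of treated cells. Its signals were 34.2, 57.6 and 61.5, a log2 ratio of 0.75 with BMP-2 (robust SD 0.34) and of 0.09 for siENG over siCont. Its second probe set, whose name marks it as open to cross-hybridization, gave 21.9, 23.1 and 57.5, so that it was higher with siENG and not with BMP-2. Which of the BMP-2 arrays differed from vehicle in Hoxa5 thus depended on the probe set.

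Hoxa3, which is needed for the thymus and parathyroid, is the most anterior gene with signal on all arrays. Its signals were 34.3, 43.7 and 48.8, a log2 ratio of 0.35 with BMP-2, within the robust SD of 0.45. The second of its 4 probe sets gave 25.5, 35.4 and 21.6, and the other two were within the range on 1 array and on all 3. Hoxa10, a gene of the lower trunk and uterus, had 32.9, 27.7 and 29.5, and Hoxb9, a gene of the thoracic level, 28.3, 28.2 and 37.3. Neither differed by more than the robust SD of its signal class in either comparison. The second probe set of Hoxa10 stayed within the control range, with 3.6, 4.6 and 9.2. The probe sets that represent Hoxa10 and Hoxb6 are of the kind shared by several transcripts of a gene.

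Hoxb6 and Hoxc6, paralogues of the thoracic region, were highest on the BMP-2 array and lowest on the siENG array. Hoxb6 had signals of 30.8, 45.9 and 24.9, with log2 ratios of 0.58 for BMP-2 over vehicle and -0.88 for siENG over siCont, where the robust SDs were 0.45 and 0.49. Hoxc6 had 25.5, 38.9 and 20.5, with log2 ratios of 0.61 and -0.92 and robust SDs of 0.45 and 0.56. The 2 ratios of each gene share the BMP-2 array, and an error on it enters both with opposite sign. The second probe set of Hoxc6 gave 17.8, 26.1 and 33.7, higher with siENG than with siCont. Its name, like that of the second Hoxa5 probe set, marks it as open to cross-hybridization. The last of its 3 gave 15.6, 11.5 and 9.1, lowest on the siENG array but within the control range on both arrays of treated cells. The lower siENG signal of Hoxc6 was thus not seen in its second probe set.

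The question of how BMP-2 altered the Hox genes was addressed by siCont BMP-2 over siCont vehicle, over genes whose higher signal exceeded 13.1. Of 33 Hox genes 12 were kept, and of these, on deposited signals, Hoxc9 alone reached 2, Hoxa9 alone fell to 0.5 or less and 10 lay between. Over all 12756 genes kept, 3.97% were at 2 or more and 4.30% at 0.5 or less. Among genes with signals up to that of Hoxc13 (at most 108), a limit chosen after the Hox signals were seen, the shares were 9.11% and 10.5%, so 1 of 12 in each direction is near the background. The median log2 ratio of the 12 was 0.54 and 8 of them were higher with BMP-2. Over all genes kept the median was 0.00, and 6465 of 12756 were higher. Among genes with signals up to that of Hoxc13 it was -0.04, and 2391 of 5106 were higher. Hoxa11 was kept only through its BMP-2 signal, and Hoxa9 and Hoxa13 only through that of vehicle. The 12 genes were read on 1 pair of arrays and are not replicates of the treatment. Their median ran from 0.15 to 0.58 under the other settings.

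**Figure D3:**
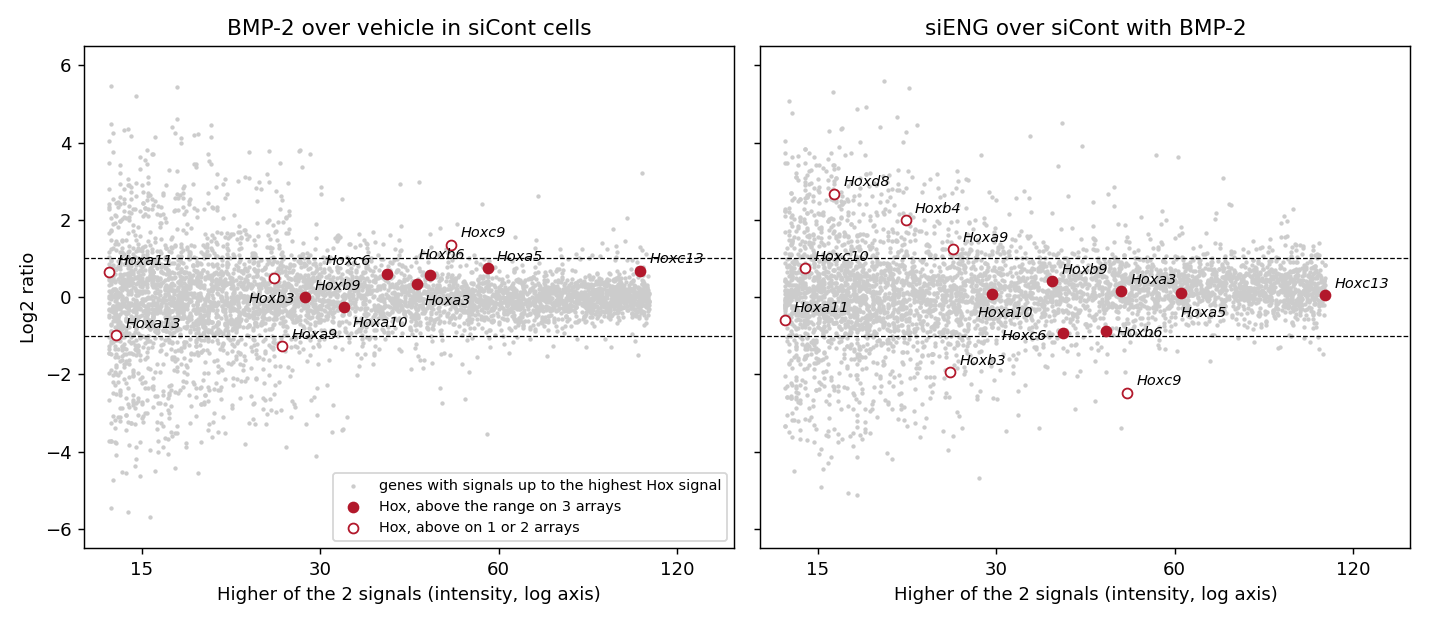
Log2 ratio against the higher of the 2 signals (log axis) for BMP-2 over vehicle in siCont cells (left) and siENG over siCont with BMP-2 (right), with 1 point per gene and dashed lines at ratios of 2 and 0.5. Grey points are genes with signals from 13.1 to 108, filled red points Hox genes above the range on all 3 arrays, and open red points those above on 1 or 2. Hoxc9 lies highest of the Hox genes on the left and lowest on the right, and the grey points spread widely at low signals.

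Hoxc9, a gene of the thoracic level that helps to set motor neuron identity there, had the largest BMP-2 ratio of the Hox genes kept on deposited signals. Its signals were 19.5, 49.9 and 9.0. Both siCont arrays lay above the control range and the siENG array within it. BMP-2 over vehicle gave a ratio of 2.56, a log2 ratio of 1.36 where the robust SD was 0.45, and siENG was at least 3.81-fold lower than siCont with BMP-2. Both ratios rest on the one BMP-2 array and on a single probe set.

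Hoxa9, a posterior gene also active in blood progenitors, had the opposite course. Its signals were 25.9, 10.7 and 25.4, within the range on the BMP-2 array alone, which makes it at least 1.98-fold lower there than with vehicle and siENG at least 1.94-fold higher than siCont. Its second probe set gave 5.5, 12.8 and 8.6, all within the range. The ratio of 0.5 or less thus came from a signal inside the background.

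For siENG over siCont, both with BMP-2, 14 Hox genes were kept, with 3 at a ratio of 2 or more (Hoxa9, Hoxb4 and Hoxd8) and 2 at 0.5 or less (Hoxb3 and Hoxc9). Over all 12744 genes kept, 6.43% were at the first of these ratios and 510 genes at the second, and the shares were 13.8% and 10.2% among genes with signals up to that of Hoxc13. When ratios were centred on the median probe set the Hox counts were 3 and 4, with Hoxb6 and Hoxc6 added to the lower side, against 4.70% and 5.33% of all genes. Their median log2 ratio was 0.09 on deposited signals but -0.10 after centring, -0.07 after quantile normalization and -0.12 after scaling to one trimmed mean, so it has no settled sign. Over all genes kept it was 0.23.

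Hoxb3 and Hoxb4, which act in the hindbrain and in blood stem cells, gave opposite ratios, both near background. Hoxb3 had signals of 17.8, 25.1 and 6.5, at least 1.92-fold lower with siENG. Its second probe set gave 1.9, 3.1 and 19.7, the reverse order, so no direction is given for Hoxb3. Hoxb4 had 6.8, 5.3 and 21.1, at least 1.61-fold higher with siENG, and its second probe set 9.6, 0.5 and 0.9. Hoxd8 had 8.7, 2.5 and 16.0, at least 1.22-fold higher, and its second probe set 5.1, 1.3 and 1.0. Of the 5 genes past a ratio of 2 or 0.5 in this comparison, Hoxc9 alone kept a bound above 2-fold against the control range.

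For siENG with BMP-2 over siCont with vehicle, 14 Hox genes were kept, with 2 at a ratio of 2 or more (Hoxb4 and Hoxc10) and 2 at 0.5 or less (Hoxb3 and Hoxc9), beside 6.19% and 4.36% of 12812 genes and, of 4792 genes with signals up to that of Hoxc13, 12.7% and 527 genes. Their median log2 ratio was 0.19, and -0.02 after centring, -0.27 after trimmed mean scaling and -0.21 with no signal limit, so it too has no settled sign. Hoxc10, a posterior gene of hindlimb and lumbar levels, had signals of 2.0, 8.5 and 14.3, at least 1.09-fold higher with siENG than with vehicle. Each of these 4 ratios has a signal within the control range. Hoxa11 (8.4, 13.2 and 8.8) and Hoxa13 (13.6, 6.9 and 8.3) exceeded the limit on 1 array by little.

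The cofactors and regulators of Hox genes, by contrast with most Hox genes, gave signal. All 8 measured TALE cofactors and 21 of 21 Polycomb and trithorax genes were above the range on all 3 arrays. Of all genes 59.5% were. Among the cofactors, Pbx3 gave 413, 364 and 247 and Meis2 210, 276 and 208, while Pbx4 had 29.3, 15.8 and 44.1 and Meis3 53.4, 34.6 and 74.6. With BMP-2 none of the 8 passed a ratio of 2 or 0.5. For siENG over siCont, Pbx4 and Meis3 (log2 ratio 1.11) were at 2 or more on deposited signals, and Meis3 would not be relative to the shift of 0.20. Over all genes kept, 6.43% were at 2 or more in that comparison, and 13.8% of those with signals up to that of Hoxc13. Of the chromatin genes, none passed a ratio of 2 or 0.5 with BMP-2, where the largest log2 ratio was 0.42 for Wdr5, a trithorax subunit. For siENG over siCont, Pcgf2, a Polycomb subunit that represses Hox genes, had 30.2 and 61.8 (log2 ratio 1.03), the only one of 21 past 2 and not relative to that shift, and Kdm6b, which removes the Polycomb histone mark, 233 and 456 (0.97).

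Retinoic acid, Cdx factors and Gdf11 induce Hox genes in the embryo. Of 19 measured genes of that group, 10 (52.6%) were above the range on all 3 arrays, beside 59.5% of all genes. Cdx1, Cdx2 and Cdx4 were within the range throughout. Cyp26b1, which degrades retinoic acid, had signals of 22.5, 49.3 and 19.2, a log2 ratio of 1.13 with BMP-2 and of -1.36 for siENG over siCont. Gdf11, a ligand that promotes posterior Hox genes, had 15.3, 28.2 and 28.4 (0.88 with BMP-2), and the retinoic acid receptor Rara 42.8, 44.3 and 78.1. With BMP-2, Cyp26b1 alone of 11 genes kept reached a ratio of 2 and Aldh1a3 alone, at 15.4 and 6.2, was at 0.5 or less. Over all genes kept, 3.97% were at 2 or more and 4.30% at 0.5 or less. Among genes with signals up to that of Hoxc13 the shares were 9.11% and 10.5%, so 1 of 11 each way is near the background. For siENG over siCont, Cyp26b1 alone of 10 was past either ratio, at 0.5 or less. In that comparison 510 of 12744 genes kept were at 0.5 or less, and 10.2% of those with signals up to that of Hoxc13. The count of 1 of 10 is thus near the background at such signals.

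**Figure D4:**
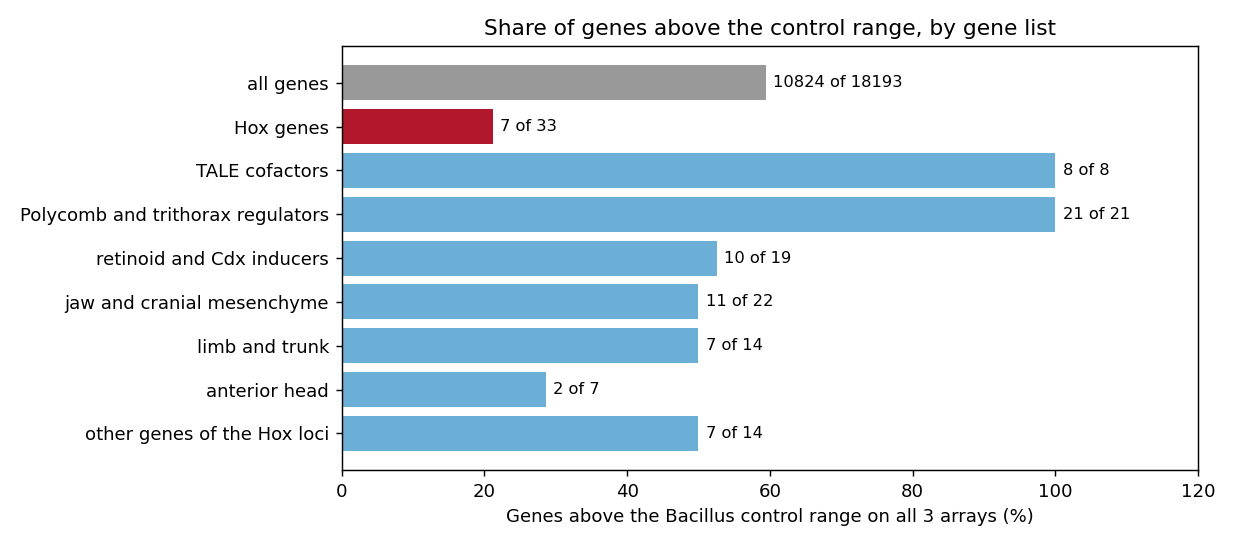
Percent of measured genes above the Bacillus control range on all 3 arrays (horizontal axis) in all genes, the Hox genes and 7 related gene lists, with the counts beside the bars. The Hox genes, at 7 of 33, have a lower share than all genes (10824 of 18193), and the TALE cofactors and chromatin regulators are all above the range.

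Jaw and cranial mesenchyme genes were above the range on all 3 arrays in 11 of 22, limb and trunk genes in 7 of 14. Both shares are 50%, below the 59.5% of all genes, so these counts do not set the jaw genes apart. Anterior head genes were above the range in 2 of 7. The jaw genes Dlx1 (400, 836 and 529) and Dlx2 (579, 1196 and 688) were higher with BMP-2, by log2 ratios of 1.06 and 1.05. So were Prrx2 (208, 428 and 528) and Msx2 (101, 192 and 143), by 1.04 and 0.93. Among the 7 Hox genes above the range on all 3 arrays the largest such ratio was 0.75. Hoxc9, above the range on both arrays of this comparison, had 1.36. Of 14 jaw genes kept, 5 were at 2 or more with BMP-2 (Dlx1, Dlx2, Prrx2, Pax9 and Six2) and 0 at 0.5 or less. Pax9 and Six2 were within the control range with vehicle. Over all genes kept the shares were 3.97% and 4.30%, and 9.11% and 10.5% among genes with signals up to that of Hoxc13. Dlx1, Dlx2 and Prrx2 lie above that signal limit, so the latter shares do not cover them. For siENG over siCont 1 of 15 (Barx1) was at 2 or more and 1 (Pax9) at 0.5 or less. Barx1 had 1.6 and 14.4 and Pax9 15.5 and 5.3, so each had a signal within the control range. Over all genes kept in that comparison 6.43% were at 2 or more and 510 of 12744 at 0.5 or less. Among genes with signals up to that of Hoxc13 the shares were 13.8% and 10.2%, so 1 of 15 each way does not stand out. The jaw genes Dlx5, Dlx6, Pitx1, Lhx8, Hand2, Gsc and Nkx3-2 stayed within the range on every array. Of the limb and trunk genes, Shox2 (808, 1006 and 719), Tbx18 (396, 480 and 403), Pax3 (211, 271 and 203) and Emx2 (67.9, 94.0 and 72.3) had log2 ratios with BMP-2 between 0.28 and 0.47, and Tbx5 was within the range on every array. None of 9 limb and trunk genes kept passed either ratio with BMP-2, and 1 of 8 (Lmx1b, at 17.5 and 1.7) was at 0.5 or less for siENG over siCont. Of the anterior head genes Six3 (43.7, 51.9 and 45.4) and Otx1 (25.4, 21.0 and 34.4) were above it throughout and Otx2 was not above it on any array. Emx1 (24.0, 3.9 and 16.9) was past a ratio with BMP-2 and, in the other direction, with siENG, and Lhx1 (13.2, 15.8 and 3.6) with siENG. For siENG over siCont, Lmx1b, Emx1 and Lhx1 each had a signal within the control range. The shares given above for that comparison apply to them too.

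Genes that lie beside the clusters or run through them were also read. The flanking genes Skap2, Snx10, Cbx1, Mtx2, Lnpk and Smug1 were above the range on all 3 arrays, with signals from 105 to 813 and no ratio of 2 or 0.5. Skap1, of the same list, had 13.1, 16.1 and 11.9, above the range on the BMP-2 array alone. Evx2, next to Hoxd13, had 18.6, 16.0 and 22.2, and Evx1, beside the Hoxa cluster, stayed within the range. Of the antisense transcripts, Hoxa11os had 6.8, 13.3 and 9.3 and Hoxb5os 3.2, 13.6 and 1.1, so each passed the limit on the BMP-2 array alone and by little, and Hoxb5os was the only gene of this list past a ratio of 2 or 0.5 in either comparison. Hoxd3os1 was within the range. Of 7 epithelial markers, 0 were above the range on all 3 arrays and 7 on at least 1. The 7, over unlike probe sets, summed to 117, 128 and 78.0 and Epcam had 26.2, 26.9 and 11.9, both lowest on the siENG array. Krt5, Krt8 and Krt18 were also lowest on that array. The others were not: Cdh1 was highest on it, Trp63 was lowest with vehicle and Krt14 was lowest on the BMP-2 array. The 7 markers thus did not fall together with siENG. The part of these markers in the Hox values was not tested.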

How the data were processed

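Total RNA of PDL-L2 cells was read on Affymetrix mouse arrays, 1 per condition. The values deposited are linear intensities of each probe set. GCOS 1.4 is named in the submitters' processing notes. The sources used here do not say how the signals were derived and scaled. Signals were used as deposited, with 0.1 for a signal listed at 0. Of 45101 probe sets, 64 controls were left out. Gene names came from the platform annotation, updated through RefSeq for GRCm38.p6. A single symbol was found for 34945 probe sets (18193 genes) and several for 932.

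A ratio was formed where the higher of its 2 signals exceeded 13.1, and ratios of 2 or more and of 0.5 or less were counted. The robust SD is 1.4826 times the median absolute deviation of log2 ratios in 20 bins of mean log2 signal, over all probe sets. Without replicates no test was possible, and the number of arrays limits the precision. The calculation of ratios was checked on simulated signals with known changes. Every Hox gene above the control range on all arrays or past a ratio was named with its values, as were up to 4 members of each other list, those above the range with the largest ratios. Further members named were chosen after their values were seen. The members and lists were chosen with earlier results of these data known. Alternatives were other signal limits and background limits, floors at the background, 3 scalings and other probe sets. Calculations used Python 3.11.15, numpy 2.4.6, pandas 2.3.3 and matplotlib 3.10.9.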

Additional observations from a re-analysis of the deposited data

Results flagged for a closer look

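A probe set shared by Hoxb8 and Hoxb7, which lies outside the comparisons because it names more than 1 gene, gave 13.5 on the vehicle array, 16.0 on the BMP-2 array and 11.9 on the siENG array. It was noted because its highest signal exceeded the control range of 13.1. Hoxb7 on its own probe set had 8.0, 8.9 and 2.7, all within that range.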

How the results depend on the processing

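The number of Hox genes above the control range on all 3 arrays was 7 and lay between 5 and 8 under 7 alternatives. It was 15 with at least 1 array above and 4 (Hoxa5, Hoxb6, Hoxb9 and Hoxc13) where every probe set of a gene had to pass. The counts at a ratio of 2 or more and 0.5 or less are small and moved with most settings. They were 1 and 1 for BMP-2 over vehicle, 3 and 2 for siENG over siCont with BMP-2, and 2 and 2 for siENG with BMP-2 over siCont vehicle. In the same order of comparisons, with no signal limit they were 5 and 7, 6 and 7, and 4 and 7, and above the 75th percentile, 152, no Hox gene was kept (0 in each, no median). With the limit at the median, 23, they were 1 and 1, 1 and 2, and 0 and 0. With signals under 13.1 set to it they were 1 and 0, 0 and 1, and 0 and 0, and with the mean over probe sets 1 and 0, 0 and 1, and 2 and 1. The second probe set gave 0 and 0, 2 and 0, and 2 and 0, with medians of 0.84 and 1.16 in the last 2 comparisons. For siENG over siCont the lower count was 4 after quantile normalization, after median centring and after trimmed mean scaling. Trimmed mean scaling gave 2 genes at 0.5 or less with BMP-2 and 1 at 2 or more in the last comparison. Causes were not tested. The calls of Hoxc9 with BMP-2 and for siENG over siCont were lost only above the 75th percentile and with the second probe set, which it does not have. With 1 probe set and a BMP-2 signal of 49.9, the mean over probe sets and limits up to 23 could not change these calls. Keeping them under those settings therefore adds no support, and both calls rest on that 1 reading. No paired analysis was possible because each condition has 1 array. Signals near background limit what can be said of the other Hox genes.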
